A study of Mus musculus with 10 samples.

Results

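The genes described here are the nuclear genes for the 5 complexes of the mitochondrial respiratory chain, chosen by symbol alone: every gene whose symbol begins with Nduf, Uqcr, Atp5, Cox4, Cox5, Cox6 or Cox7, and Cox8a, Sdha, Sdhb, Sdhc, Sdhd and Cyc1. The rule gave 92 of the 19505 named genes, each with 1 probe set. They comprise 36 subunits of complex I, 8 complex I assembly factors (the Ndufaf genes), 4 subunits of complex II, 9 of complex III, 17 of complex IV, 17 of complex V, and the supercomplex factor Cox7a2l. Ndufa4 and its paralogue Ndufa4l2 were counted with complex IV, to which the Ndufa4 protein is assigned today despite its name. Cox8b was left out by rule, and the subunits encoded in mitochondrial DNA were not analysed here.

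The chain oxidises NADH and succinate and passes the electrons to oxygen. Complexes I, III and IV pump protons across the inner mitochondrial membrane during this transfer, complex II feeds electrons in without pumping, and complex V, the ATP synthase, uses the resulting gradient to make ATP. Most subunits are encoded in the nucleus, and colonocytes, the absorptive cells of the colon surface, are known to depend on this pathway to oxidise the butyrate made by gut bacteria.

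Expression was measured in complete colon tissue of wild-type C57BL/6 mice on 10 single-colour arrays. The 5 ECP arrays came from mice given dextran sulfate sodium (DSS) at 3% in the drinking water, an intraperitoneal anti-PD1 antibody and donor cells that had undergone ECP (extracorporeal photopheresis, a procedure that exposes blood leukocytes to a light-activated drug and then to ultraviolet light). The 5 control arrays came from mice given DSS and the antibody without donor cells. All 10 arrays therefore carry the colitis treatment, no array of a healthy colon is part of the comparison, and the age and sex of the mice are not given in the labels. Values are log2 intensities, lists of 5 values run from replicate 1 to 5, and differences are ECP minus control on the log2 scale. The levels of different genes come from different probes and cannot be ranked against each other.

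The tissue label was borne out by the colonocyte markers, with a mean level of 11.63 to 11.86 in the ECP arrays and 11.16 to 11.87 in the control arrays over 10 of 10 markers. Pancreatic acinar markers (13 of 15 measured) had a mean level of 5.53 to 5.75 in the ECP arrays and 5.72 to 12.00 in the control arrays, and the high controls were replicate 1 (10.17) and replicate 4 (12.00). The same arrays had the lowest smooth muscle levels, 9.41 in control replicate 1 and 9.76 in control replicate 4, and control replicate 4 had the lowest colonocyte level (11.16). B cell markers (8 of 9 measured) had a mean level of 5.67 to 6.87 in the ECP arrays and 5.83 to 8.55 in the control arrays, highest in control replicate 4 (8.55) and next in ECP replicate 1 (6.87). Results are therefore also given without control replicates 1 and 4. In whole tissue, fewer cells of a type and less RNA per cell cannot be told apart.

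A known feature of these genes is the set of factors that bind their promoters, among them NRF1, the ETS family factor GABP and YY1. RefSeq promoters of GRCm38.p6, from 250 bases before to 50 bases after the start, were matched for 76 of the 92 genes. The palindrome-like NRF1 motif, searched on both strands, stood in 19 of 76 (25%) of these genes and in 7.63% of the 15691 genes on the array with a promoter in the table. The ETS letters CCGGAAG stood in 19 of 76 (25%) against 13.24% of all genes, and the YY1 letters AAGATGGC in 11 of 76 (14.5%) against 3.64%. By contrast the TATA letters TATAAA stood in 7 of 76 (9.2%) against 14.57%. In the 250 bases before the start alone, the NRF1 motif stood in 14 of 76 (18.4%) against 6.19% of all genes, but the YY1 letters in 1 of 76 (1.3%) against 1.78%. The ETS letters there stood in 14 of 76 (18.4%) against 10.46%. A match of letters is a description and not a binding site. The 250 bases before the start are printed for the gene of each complex that carries the NRF1 letters there and had the smallest p between the groups, with every NRF1 match, on either strand, in capitals; complex III had no such gene among those matched.
Ndufa8 (chr2:36049339-36049588, minus strand): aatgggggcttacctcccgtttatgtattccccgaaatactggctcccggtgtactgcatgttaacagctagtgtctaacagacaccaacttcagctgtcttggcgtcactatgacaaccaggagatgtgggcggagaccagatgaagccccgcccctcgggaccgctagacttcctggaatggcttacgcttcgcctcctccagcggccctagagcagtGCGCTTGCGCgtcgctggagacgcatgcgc
Sdhd (chr9:50603850-50604099, minus strand): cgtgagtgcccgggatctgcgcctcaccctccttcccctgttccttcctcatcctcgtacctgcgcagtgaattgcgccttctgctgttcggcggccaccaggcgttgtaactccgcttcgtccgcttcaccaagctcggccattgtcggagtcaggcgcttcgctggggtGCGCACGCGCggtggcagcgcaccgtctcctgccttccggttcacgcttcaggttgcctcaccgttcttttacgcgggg
Cox6a1 (chr5:115348959-115349208, minus strand): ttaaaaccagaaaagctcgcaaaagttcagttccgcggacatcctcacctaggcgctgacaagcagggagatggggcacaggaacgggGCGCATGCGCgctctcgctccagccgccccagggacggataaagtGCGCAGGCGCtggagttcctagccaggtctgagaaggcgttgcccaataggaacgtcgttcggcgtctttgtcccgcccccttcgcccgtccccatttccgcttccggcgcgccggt
Atp5g2 (chr15:102671048-102671297, minus strand): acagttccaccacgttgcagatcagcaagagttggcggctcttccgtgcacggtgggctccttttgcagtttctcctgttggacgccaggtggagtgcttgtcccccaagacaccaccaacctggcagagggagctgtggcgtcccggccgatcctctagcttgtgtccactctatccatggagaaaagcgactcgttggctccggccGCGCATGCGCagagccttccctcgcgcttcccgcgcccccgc
The Cox6a1 promoter holds a pair of NRF1 matches and each of the others holds 1. The 19 genes with the NRF1 letters had a median difference between the groups of -0.0038, and the 57 without them 0.0021.

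The ECP and control arrays address whether giving such donor cells alters expression of these genes during colitis. No respiratory chain gene passed the test in either direction. The adjusted p from limma was under 0.05 in 0 of the 92 and in 0% of all 19505 genes. At an unadjusted p under 0.05 the count was again 0 of 92, against 5.08% of all genes (2.31% higher and 2.77% lower). Among the 1685 genes with a mean level of 10 or higher, 3.03% had an unadjusted p under 0.05, and 0 of the 53 respiratory chain genes at such levels did. In 0 of 92 genes did the groups not overlap, against 1.22% of all genes. The ECP mean exceeded the control mean in 49 of the 92 and was below it in 43 (53.3% higher, the same percentage as over all genes). The median difference was 0.00079 against 0.0078 over all genes. At a mean level of 10 or higher the percentages were not alike. There 28 of the 53 respiratory chain genes were higher (52.8%, median difference 0.00074), against 66.9% of the 1685 genes (median difference 0.029). The 1685 genes had their lowest median deviations from the gene's 10-array mean in control replicate 1 (-0.060) and control replicate 4 (-0.037). For the 92 genes these deviations were 0.046 and -0.035. The percentages were not recomputed without these arrays, whose part in the contrast was not tested. The count at an unadjusted p under 0.05 was 2 of 92 (2.17%) without control replicate 4 (Ndufaf1 higher, Ndufv3 lower), against 6.40% of all genes. It was 1 of 92 (1.09%) without control replicate 1 (Ndufa2), control replicate 5 (Ndufaf6) or ECP replicate 5 (Ndufaf1), against 5.51%, 5.44% and 5.06% of all genes. Without control replicates 1 and 4 it was 2 of 92 (Ndufa2 higher, Ndufv3 lower), against 6.60%. Each count lay below the share over all genes.

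The differences were small. They ran from -0.12 for the complex I accessory subunit gene Ndufv3 to 0.17 for the assembly factor gene Ndufaf1, and 4 of 92 (4.35%) were larger than 0.1 in size, against 32.6% of all genes and 19.1% of the genes at 10 or higher. The median size of the difference was 0.028 for the 92 genes, 0.068 for all genes and 0.050 for the genes at 10 or higher. The 95% intervals of all 92 differences, taken gene by gene, lay between -0.31 (Cox6b2) and 0.36 (Ndufaf1), which as a ratio of ECP to control is 0.809 to 1.28. Their median half-width was 0.143, against 0.208 over all genes and 0.155 over the genes at 10 or higher. The spread over all 10 arrays was also small, with a median SD of 0.079 against 0.16 over all genes and 0.097 over the genes at 10 or higher.

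**Figure D1:**
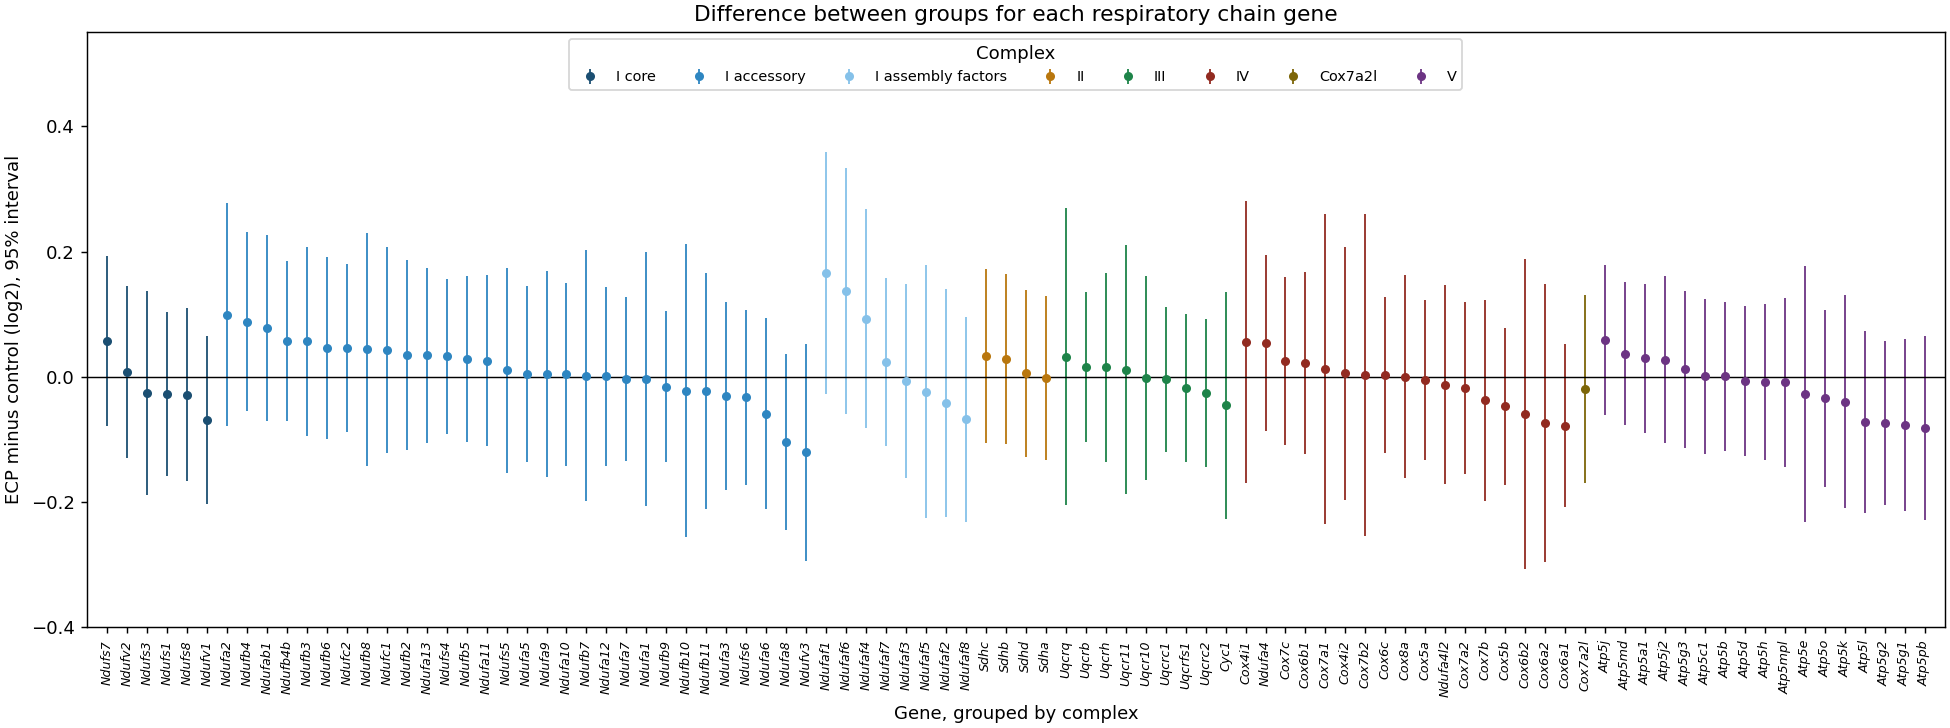
Difference between ECP and control arrays (vertical axis, log2, with the 95% interval from limma) for each of the 92 genes, grouped and coloured by complex. Every interval includes 0, and the points lie between -0.12 (Ndufv3) and 0.17 (Ndufaf1).

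Complex I takes electrons from NADH. Its 6 measured core subunits, which carry the flavin and most iron-sulphur clusters, showed no gene past the test, and 2 of 6 lay higher and 4 lower with ECP (median difference -0.026). Ndufv1, the flavin-bearing subunit that oxidises NADH, was at 10.66, 10.65, 10.71, 10.67 and 10.80 in the ECP arrays, against 10.83, 10.65, 10.75, 10.79 and 10.82 in the control arrays. The difference was -0.069 (SE 0.062, 95% interval -0.20 to 0.065), and both groups covered much the same range. Ndufs7, which holds the last iron-sulphur cluster before ubiquinone, was at 10.59, 10.49, 10.49, 10.50 and 10.45 in the ECP arrays, against 10.34, 10.55, 10.40, 10.45 and 10.49 in the control arrays. Its difference was 0.057 (SE 0.062, 95% interval -0.079 to 0.19), with the lowest value in control replicate 1. Ndufs1, the largest iron-sulphur subunit, was at 10.09, 10.05, 10.05, 10.07 and 10.07 in the ECP arrays, against 10.10, 10.05, 10.07, 10.01 and 10.23 in the control arrays. Apart from 10.23 in control replicate 5, its arrays lay within 10.01 to 10.10, and the difference was -0.027. Ndufs3, Ndufs8 and Ndufv2 differed by -0.026, -0.028 and 0.0074. Unadjusted p-values of the 6 genes were 0.284 or higher (limma).

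Of the 30 accessory subunits of complex I, which surround the core and are needed to build or hold it, 20 lay higher and 10 lower with ECP, with a median difference of 0.0079 and 0 past the test. Ndufa8, a subunit on the intermembrane side, was at 10.66, 10.51, 10.49, 10.57 and 10.48 in the ECP arrays, against 10.68, 10.70, 10.59, 10.72 and 10.53 in the control arrays. It had the smallest p of all subunits, with a difference of -0.10 (SE 0.064, 95% interval -0.24 to 0.037) and an unadjusted p of 0.133 (limma adjusted p = 0.998). Ndufv3, a small subunit of the NADH-oxidising arm, was at 7.18, 7.27, 7.23, 7.17 and 7.26 in the ECP arrays, against 7.39, 7.34, 7.47, 7.08 and 7.45 in the control arrays. All ECP arrays lay below control replicates 1, 2, 3 and 5 but above control replicate 4, and the difference of -0.12 (SE 0.079, 95% interval -0.29 to 0.052) became -0.19 without that array (limma adjusted p = 0.639). Ndufb4, a membrane arm subunit, was at 10.30, 10.39, 10.39, 10.35 and 10.27 in the ECP arrays, against 10.37, 10.28, 10.17, 10.13 and 10.31 in the control arrays. Its difference was 0.088 (SE 0.065, 95% interval -0.054 to 0.23), and Ndufb4b, a gene of near-identical sequence whose signal may not be separable from it, differed by 0.057. The highest accessory difference was 0.099 for Ndufa2, and the acyl carrier protein gene Ndufab1, which also serves mitochondrial fatty acid synthesis, differed by 0.078. The other 24 accessory genes lay between -0.059 (Ndufa6) and 0.057 (Ndufb3).

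The mean level of the 36 complex I subunits was 9.77, 9.77, 9.78, 9.75 and 9.77 in the ECP arrays, against 9.85, 9.73, 9.73, 9.72 and 9.77 in the control arrays. The group means were 9.77 ± 0.0089 in the ECP arrays and 9.76 ± 0.055 in the control arrays (SD, n = 5 each), a difference of 0.0067. The ECP arrays lay within 9.75 to 9.78, below control replicate 1, above control replicates 2, 3 and 4 and level with control replicate 5, and without control replicates 1 and 4 the difference was 0.023.

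Assembly factors build complex I without staying in it. Among the 8 Ndufaf genes, 4 lay higher and 4 lower with ECP, and the group held the 2 largest differences. Ndufaf1, which works in an early membrane-arm assembly step together with Ecsit, Acad9 and Tmem126b, was at 7.80, 7.62, 7.85, 7.59 and 7.52 in the ECP arrays, against 7.40, 7.55, 7.37, 7.71 and 7.52 in the control arrays. The difference was 0.17 (SE 0.088, 95% interval -0.027 to 0.36), with the smallest unadjusted p of all 92 genes at 0.086 (limma adjusted p = 0.998). Control replicates 2 (7.55) and 4 (7.71) lay among the ECP values, and control replicate 5 was level with the lowest of them (7.52). Ndufaf6 was at 7.63, 7.41, 7.51, 7.46 and 7.70 in the ECP arrays, against 7.38, 7.21, 7.42, 7.38 and 7.65 in the control arrays, a difference of 0.14 (SE 0.090, 95% interval -0.059 to 0.33). Ndufaf4 was at 9.65, 9.40, 9.45, 9.40 and 9.30 in the ECP arrays, against 9.26, 9.31, 9.27, 9.51 and 9.38 in the control arrays, a difference of 0.093 (SE 0.080, 95% interval -0.082 to 0.27). In all 3 genes the groups overlapped. The differences of Ndufaf2, Ndufaf3, Ndufaf5, Ndufaf7 and Ndufaf8 were -0.041, -0.0071, -0.024, 0.024 and -0.068. The mean level of the 8 genes was 8.03, 7.86, 7.89, 7.82 and 7.82 in the ECP arrays, against 7.83, 7.83, 7.79, 7.88 and 7.92 in the control arrays. ECP replicate 1 was above all other arrays, and was above the gene's 10-array mean in 8 of 8 genes, as against 1 of 8 in ECP replicate 5. The group difference was 0.035, or 0.036 without control replicates 1 and 4, and it was -0.0014 without ECP replicate 1. Without that array the difference of Ndufaf4 was 0.039, of Ndufaf1 0.14 and of Ndufaf6 0.11. ECP replicate 1 also had the highest B cell marker level of its group (6.87), whose part in these values was not tested.

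Complex II, succinate dehydrogenase, also works in the tricarboxylic acid cycle. Sdhb, its iron-sulphur subunit, was at 10.85, 10.77, 10.80, 10.81 and 10.85 in the ECP arrays, against 10.82, 10.66, 10.83, 10.74 and 10.89 in the control arrays, a difference of 0.029 (SE 0.062, 95% interval -0.11 to 0.16). Sdhc, a membrane anchor, was at 9.57, 9.61, 9.68, 9.63 and 9.69 in the ECP arrays, against 9.48, 9.63, 9.61, 9.56 and 9.73 in the control arrays, a difference of 0.033 (SE 0.063, 95% interval -0.11 to 0.17). Sdhd, the other anchor, was at 11.11, 10.97, 10.99, 10.96 and 10.88 in the ECP arrays, against 10.91, 11.03, 10.98, 10.98 and 10.99 in the control arrays, a difference of 0.0059 (SE 0.061, 95% interval -0.13 to 0.14). The groups overlapped in each, with ECP replicate 1 the highest array for Sdhd and control replicate 1 the lowest for Sdhc. The flavoprotein gene Sdha differed by -0.0023. The mean level of the 4 subunits was 10.28, 10.22, 10.23, 10.22 and 10.25 in the ECP arrays, against 10.17, 10.20, 10.26, 10.20 and 10.28 in the control arrays. Group means were 10.24 ± 0.025 in the ECP arrays and 10.22 ± 0.045 in the control arrays (SD, n = 5 each), a difference of 0.016, which changed sign to -0.0062 without control replicates 1 and 4. Complex II was the 1 complex in which control replicate 1 had the lowest mean of all arrays.

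Complex III passes electrons from ubiquinol to cytochrome c. None of its 9 subunits passed the test, 4 of 9 lay higher and 5 lower with ECP, and their median difference was -0.0023. Cyc1, cytochrome c1, was at 8.56, 8.60, 8.69, 8.63 and 8.56 in the ECP arrays, against 8.96, 8.58, 8.56, 8.59 and 8.59 in the control arrays. Control replicate 1 stood apart from the other 9 arrays, the difference was -0.045 (SE 0.083, 95% interval -0.23 to 0.14) with it, and it turned to 0.030 without it. Uqcrc2, a core protein, was at 10.09, 10.07, 10.08, 10.01 and 10.07 in the ECP arrays, against 10.05, 10.14, 10.08, 10.05 and 10.13 in the control arrays, a difference of -0.026 (SE 0.054, 95% interval -0.14 to 0.093). Uqcrfs1, the Rieske iron-sulphur protein, was at 10.81, 10.70, 10.73, 10.74 and 10.79 in the ECP arrays, against 10.78, 10.76, 10.74, 10.76 and 10.81 in the control arrays, a difference of -0.018 (SE 0.054, 95% interval -0.14 to 0.10). Both genes varied little, with SDs over the 10 arrays of 0.038 and 0.034. The small subunit genes Uqcrq and Uqcr11 differed by 0.032 and 0.012, Uqcrb and Uqcrh by 0.016 and 0.015, and Uqcrc1 and Uqcr10 by -0.0038 and -0.0023. The mean level of complex III was 10.29, 10.23, 10.23, 10.22 and 10.26 in the ECP arrays, against 10.38, 10.18, 10.23, 10.20 and 10.26 in the control arrays. Group means were 10.25 ± 0.028 in the ECP arrays and 10.25 ± 0.080 in the control arrays (SD, n = 5 each), a difference of -0.0022, or 0.024 without control replicates 1 and 4. This near-zero difference was 0.031 without control replicate 1 alone and -0.016 without control replicate 4 alone. It was also above 0 without ECP replicate 2 (0.0025), 3 (0.0013) or 4 (0.0035).

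Complex IV, cytochrome c oxidase, hands the electrons to oxygen. Of its 17 genes 9 were higher and 8 lower, with 0 past the test. Cox6a1 was at 12.01, 12.10, 12.01, 12.01 and 11.99 in the ECP arrays, against 12.19, 12.11, 12.13, 11.99 and 12.10 in the control arrays, a difference of -0.078 (SE 0.059, 95% interval -0.21 to 0.052). Cox5b, a zinc-binding subunit, was at 11.33, 11.28, 11.26, 11.31 and 11.35 in the ECP arrays, against 11.44, 11.36, 11.27, 11.32 and 11.38 in the control arrays, a difference of -0.047 (SE 0.057, 95% interval -0.17 to 0.078). Ndufa4 was at 10.90, 11.05, 11.05, 11.09 and 11 in the ECP arrays, against 11.02, 10.91, 10.97, 10.86 and 11.05 in the control arrays, a difference of 0.054 (SE 0.064, 95% interval -0.086 to 0.19). The groups overlapped in each. Cox5a, Cox6c, Cox7c and Cox8a differed by -0.0047, 0.0027, 0.025 and 0.00036, Cox7b by -0.037, and Cox7b2, a testis isoform, by 0.0027. The mean level was 9.58, 9.67, 9.59, 9.58 and 9.63 in the ECP arrays, against 9.71, 9.59, 9.61, 9.53 and 9.66 in the control arrays. Group means were 9.61 ± 0.038 in the ECP arrays and 9.62 ± 0.066 in the control arrays (SD, n = 5 each), a difference of -0.0088, or -0.0073 without control replicates 1 and 4. With Ndufa4 and Ndufa4l2 counted in complex I, the differences were -0.013 for complex IV and 0.0075 for complex I.

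Several complex IV subunits have a tissue isoform beside the widely expressed one: Cox4i2 in lung and in low oxygen, Cox6a2 and Cox7a1 in heart and skeletal muscle, Cox6b2 in testis, and the hypoxia-induced Ndufa4l2. The shift of each isoform relative to its partner was compared between the groups as the difference of the log2 values within each array. For Cox4i2 minus Cox4i1 these were -4.71, -4.52, -4.58, -4.54 and -4.62 in the ECP arrays, against -4.78, -4.15, -4.58, -4.32 and -4.89 in the control arrays. The ECP values were close together and lay inside the control range. For Cox7a1 minus Cox7a2 they were -1.83, -1.60, -1.90, -1.70 and -1.97 in the ECP arrays, against -1.84, -1.91, -1.74, -2.12 and -1.53 in the control arrays. Here too the groups overlapped, with control replicates 4 and 5 at the extremes. For Ndufa4l2 minus Ndufa4 they were -5.02, -4.99, -5.13, -5.21 and -5.05 in the ECP arrays, against -4.93, -5.01, -5.12, -5.02 and -4.98 in the control arrays. The shifts between the groups were -0.051 (SE 0.14) for Cox4i2, 0.0047 (SE 0.11) for Cox6a2, -0.082 (SE 0.12) for Cox6b2, 0.030 (SE 0.12) for Cox7a1 and -0.066 (SE 0.050) for Ndufa4l2. In 0 of the 5 pairs did the shift pass the test (exact permutation p = 0.214 or higher, two-sided over all splits of the 10 arrays; 0.968 after adjustment over the 5 pairs, all 5 alike).

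In the isoform genes themselves the groups overlapped throughout. Cox7a1 was at 8.81, 8.97, 8.81, 8.86 and 8.66 in the ECP arrays, against 8.92, 8.68, 8.91, 8.44 and 9.09 in the control arrays, and its difference of 0.012 became -0.079 without control replicate 4. Cox4i2 was at 6.01, 6.18, 6.10, 6.11 and 6.27 in the ECP arrays, against 6.24, 6.27, 6.03, 6.25 and 5.85 in the control arrays, a difference of 0.0055. Cox4i1 was at 10.72, 10.71, 10.68, 10.65 and 10.89 in the ECP arrays, against 11.02, 10.43, 10.61, 10.57 and 10.73 in the control arrays, with control replicate 1 the highest and control replicate 2 the lowest of all arrays, and differed by 0.056 (SE 0.10, 95% interval -0.17 to 0.28). The partners Cox7a2 and Cox6b1 differed by -0.018 and 0.022. Cox6a2 was at 6.65, 7.11, 6.80, 6.73 and 7.0 in the ECP arrays, against 7.0, 6.81, 6.78, 7.11 and 6.96 in the control arrays, and Cox6b2 at 6.03, 5.93, 6.05, 5.98 and 5.73 in the ECP arrays, against 6.13, 6.15, 5.91, 5.62 and 6.22 in the control arrays. Control replicate 4 was the lowest array for Cox6b2 and, with ECP replicate 2, the highest for Cox6a2, and the differences were -0.073 for Cox6a2 and -0.060 for Cox6b2. Ndufa4l2 was at 5.88, 6.06, 5.92, 5.88 and 5.95 in the ECP arrays, against 6.09, 5.90, 5.86, 5.84 and 6.07 in the control arrays, a difference of -0.012. Striated muscle markers, 10 of 10 measured, had a mean level of 5.50 to 5.71 in the ECP arrays and 5.37 to 5.73 in the control arrays, lowest in control replicate 4, which was also the lowest array for Cox7a1. Their part in these values was not tested.

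Cox7a2l, which joins complexes III and IV into supercomplexes and is known to occur in a shortened form in C57BL/6 mice, was at 10.46, 10.23, 10.25, 10.40 and 10.47 in the ECP arrays, against 10.34, 10.32, 10.43, 10.40 and 10.41 in the control arrays. Its difference was -0.019 (SE 0.069, 95% interval -0.17 to 0.13), and the groups overlapped. Expression values do not show which protein form was made.

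Complex V makes ATP. Of its 17 subunits 7 were higher and 10 lower, with 0 past the test and a median difference of -0.0078. The catalytic head genes Atp5a1 (alpha) and Atp5b (beta) differed by 0.029 and 0.00074, and the central stalk genes Atp5c1 (gamma), Atp5d (delta) and Atp5e (epsilon) by 0.00076, -0.0065 and -0.027. The genes Atp5g1, Atp5g2 and Atp5g3 code for the same rotating ring subunit. Atp5g1 was at 11.17, 11.13, 11.09, 11.01 and 11.04 in the ECP arrays, against 11.27, 11.13, 11.10, 11.21 and 11.10 in the control arrays, a difference of -0.077 (SE 0.063, 95% interval -0.21 to 0.060). Atp5g2 was at 11.27, 11.29, 11.28, 11.35 and 11.41 in the ECP arrays, against 11.38, 11.48, 11.40, 11.31 and 11.40 in the control arrays, a difference of -0.074 (SE 0.060, 95% interval -0.20 to 0.057). The groups overlapped in both, and Atp5g3 differed by 0.012. Atp5pb, a peripheral stalk subunit, was at 11.07, 10.94, 10.97, 10.99 and 10.82 in the ECP arrays, against 10.92, 11.06, 11.02, 11.12 and 11.08 in the control arrays, a difference of -0.081 (SE 0.067, 95% interval -0.23 to 0.065), with ECP replicate 5 the lowest array. The other stalk genes Atp5o, Atp5h and Atp5j differed by -0.034, -0.0078 and 0.059, and the membrane genes Atp5j2, Atp5k, Atp5l, Atp5md and Atp5mpl lay between -0.072 (Atp5l) and 0.037 (Atp5md). The mean level was 11.04, 11.01, 11.01, 11 and 11.01 in the ECP arrays, against 11.07, 11, 11.01, 11.02 and 11.05 in the control arrays. Group means were 11.01 ± 0.015 in the ECP arrays and 11.03 ± 0.030 in the control arrays (SD, n = 5 each), a difference of -0.015, or -0.0070 without control replicates 1 and 4.

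**Figure D2:**
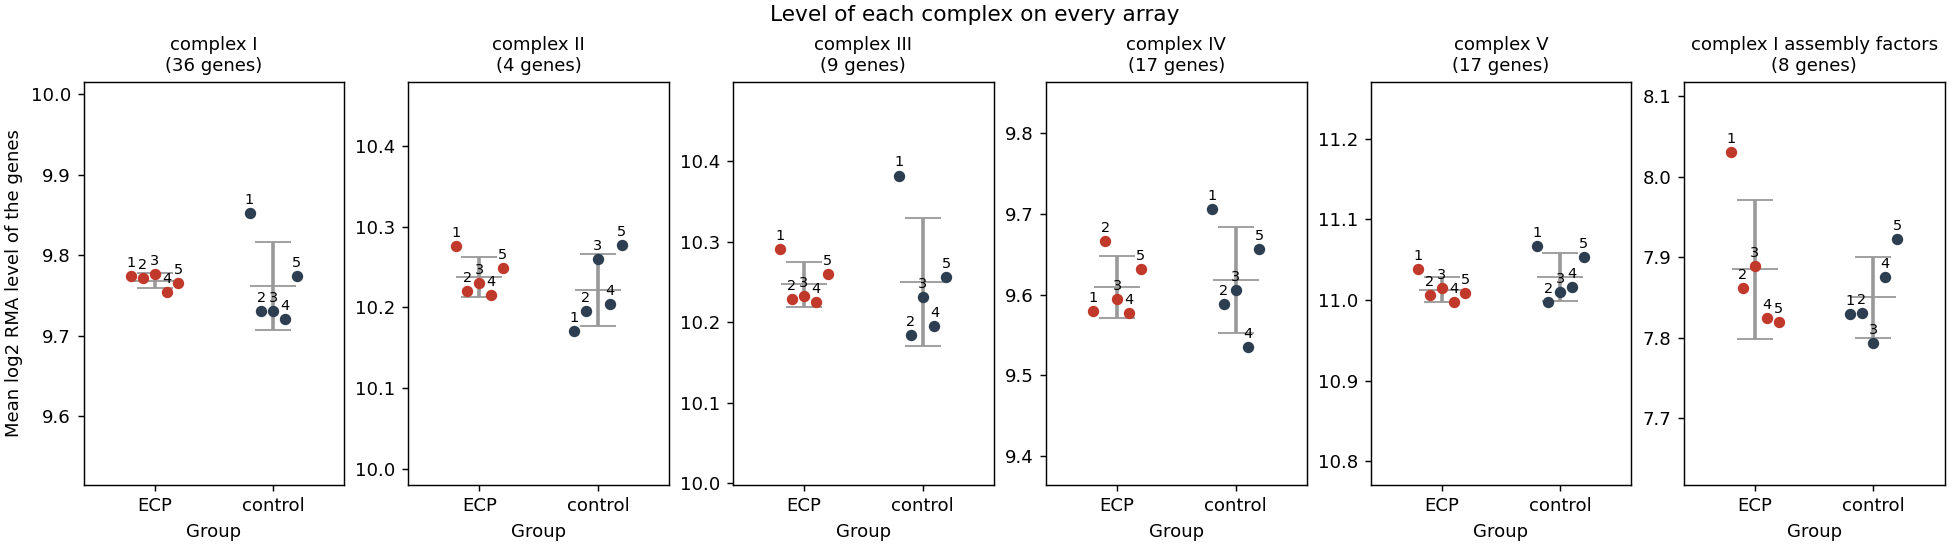
Mean log2 level of the genes of each complex (vertical axis) on every array, with ECP arrays on the left and control arrays on the right of each panel, numbers giving the replicate and grey bars the mean and SD of 5 arrays. Each panel spans the same height of the log2 scale; the groups overlap in all 6 panels, and control replicate 1 is the top point for complexes I, III, IV and V.

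Among the single arrays, control replicate 1 was set apart for these genes. It was the highest of the 10 in 34 of 92 genes (37.0%), against 15.9% of all genes and 9.14% of the genes at 10 or higher. By complex it was the highest array in 16 of 36 genes of complex I, 4 of 9 of complex III, 7 of 17 of complex IV and 5 of 17 of complex V, but in 0 of 4 of complex II. The largest gaps to the next array were in the complex I accessory genes Ndufb10 (8.74, next 8.38) and Ndufb7 (9.01, next 8.69), in the complex III genes Cyc1 (8.96, next 8.69), Uqcr11 (8.57, next 8.35) and Uqcrq (10.58, next 10.36), and in the accessory genes Ndufa6 (10, next 9.79) and Ndufa1 (9.09, next 8.88). These 7 genes were picked after their values were seen. Control replicate 1 was the highest array in 24 of 76 mitochondrial ribosomal protein genes, while it was the highest in 1 of 13 tricarboxylic acid cycle genes and in 0 of 16 complex IV assembly genes. Control replicate 1 also had a high acinar level (10.17) and the lowest smooth muscle level (9.41). Control replicate 4, with the highest acinar level (12.00), was the highest array in 3 of the 92 genes and the lowest in 23 (25%, against 20.4% of all genes and 25.8% of the genes at 10 or higher), 9 of them among the 17 complex IV genes. With the acinar, the smooth muscle or the colonocyte level as a covariate, 0 of 92 genes passed the test.

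**Figure D3:**
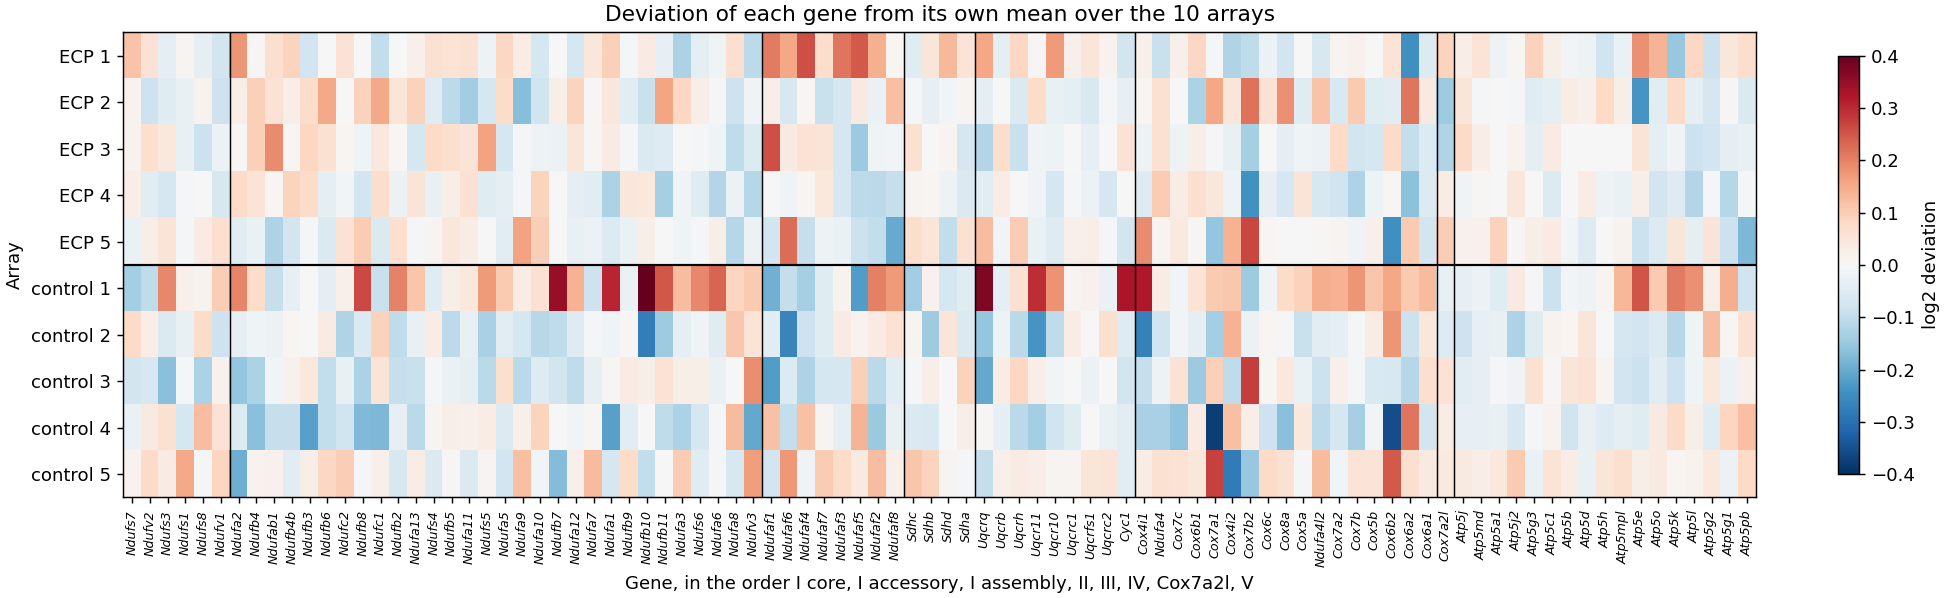
Log2 deviation of each of the 92 genes from its own mean over the 10 arrays (colour, red above and blue below; values beyond 0.4 take the end colour), with ECP arrays in the upper rows and control arrays in the lower rows, and genes in columns by complex. Control replicate 1 is red in a large share of complex I, III, IV and V genes, among them Ndufb10, Ndufb7, Uqcrq, Cyc1 and Cox4i1, and ECP replicate 1 in the assembly factors.

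**Figure D4:**
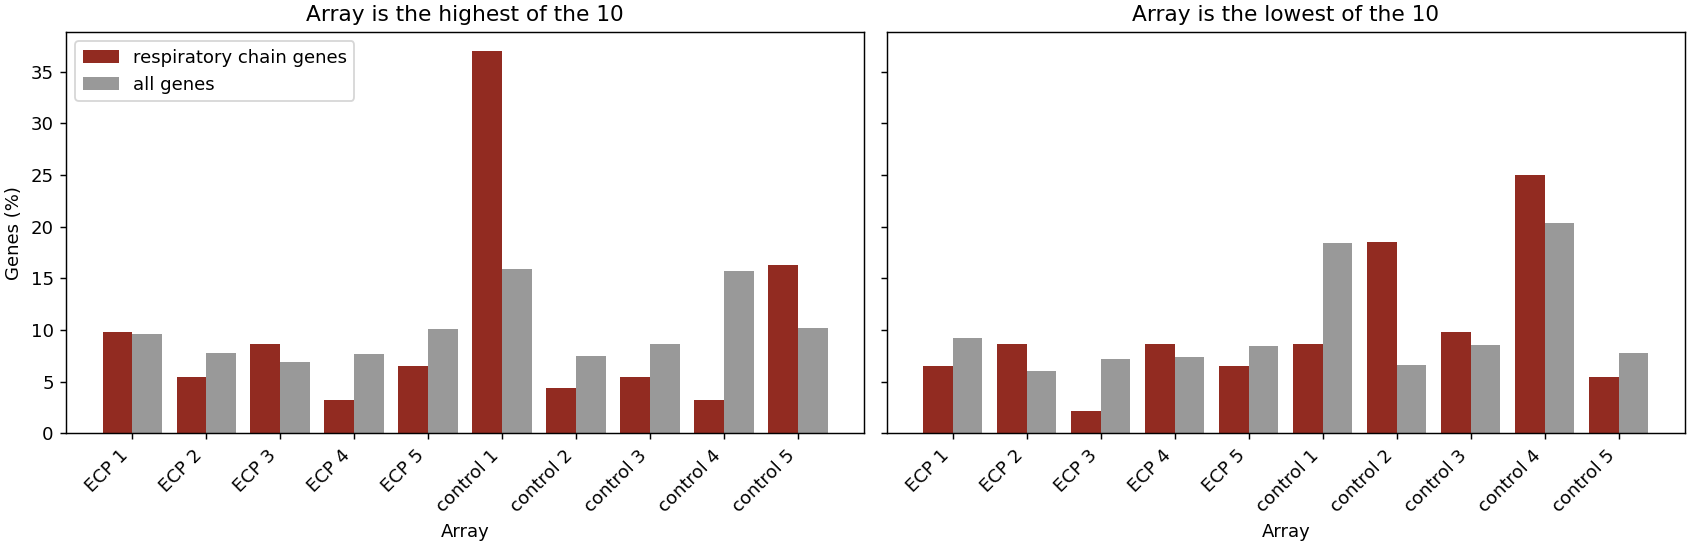
Share of genes (vertical axis, percent) in which each array is the highest of the 10 (left panel) or the lowest (right panel), for the 92 respiratory chain genes and for all 19505 genes. Control replicate 1 is the highest array in 37.0% of the respiratory chain genes and in 15.9% of all genes.

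Among genes that supply and regulate the chain, 0 were past the adjusted threshold in each of 8 lists. Tricarboxylic acid cycle enzymes (13 of 14 measured) had 7 higher and 6 lower in the ECP arrays and a median difference of 0.0094, with Idh3a, a subunit of isocitrate dehydrogenase, at 0.088 and Ogdh, of the oxoglutarate dehydrogenase complex, at 0.088. Regulators of mitochondrial biogenesis and mitochondrial DNA expression (15 of 16 measured) had 9 higher and 6 lower (median 0.068). The transcription factor gene Tfb2m was at 0.14 and the mRNA-stabilising factor gene Lrpprc at 0.12, while the lowest was Polrmt at -0.13. In this list 7 of 15 (46.7%) differed by more than 0.1 in size, against 32.6% of all genes. Complex IV assembly genes (16 of 18) had 13 higher and 3 lower (median 0.030), with Pet100 at 0.091 and Cox11, which delivers copper, at 0.11. Assembly genes of the other complexes (19 of 19) had 15 higher and 4 lower (median 0.064), with the complex I assembly genes Ecsit at 0.15 and Tmem126b at 0.093. Over all genes 53.3% were higher.

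Electron carrier and coenzyme Q genes (15 of 17) had 8 higher and 7 lower. Coq10b, a coenzyme Q chaperone gene, was at 7.91, 8.10, 8.02, 7.94 and 8.04 in the ECP arrays, against 8.14, 8.14, 8.12, 8.11 and 8.30 in the control arrays, a difference of -0.16 (SE 0.065, 95% interval -0.30 to -0.015) with an unadjusted p of 0.0327 (limma adjusted p = 0.939), and the groups did not overlap. The biosynthesis gene Coq5 was at 10.17, 10.20, 10.21, 10.22 and 10.18 in the ECP arrays, against 9.85, 10.11, 10.16, 10.15 and 9.98 in the control arrays, where the groups did not overlap either, with the ECP arrays higher. Its difference was 0.15 (SE 0.072, 95% interval -0.011 to 0.30), with an unadjusted p of 0.0662 (limma adjusted p = 0.996). In this list the groups did not overlap in 1 of 15 genes lower and 1 of 15 higher, against 1.22% of all genes. Carriers, uncouplers and porins (9 of 10) had 6 higher and 3 lower. Ucp1, the uncoupling protein of brown fat, was at 4.02, 4.18, 4.02, 3.89 and 3.84 in the ECP arrays, against 4.17, 4.38, 3.99, 4.34 and 4.16 in the control arrays, a difference of -0.22 (SE 0.092, 95% interval -0.42 to -0.017) (limma adjusted p = 0.95), while brown adipocyte markers (5 of 5, Ucp1 among them) had a mean level of 4.97 to 5.28 in the ECP arrays and 4.98 to 5.12 in the control arrays. Ucp1 was dim on all arrays, against a median level of 7.07 over all genes, and its signal over background was not assessed. The porin gene Vdac3 differed by 0.095. Fatty acid oxidation genes (15 of 15) had 9 higher and 6 lower, with the dehydrogenase gene Acadl at -0.090 and the carnitine carrier gene Slc25a20 at 0.11. Control replicate 4 was the lowest array in 8 of these 15 genes (53.3%), against 20.4% of all genes and 25.8% of the genes at 10 or higher. It also had the lowest colonocyte level, whose part in these values was not tested. Of 76 mitochondrial ribosomal protein genes 37 were higher and 39 lower (median -0.0049), and 3 had an unadjusted p under 0.05 (against 5.08% of all genes), with Mrpl15 at 0.19 and Mrps24 at -0.25 (limma adjusted p = 0.822 and 0.862). The groups did not overlap in 1 of these 76 genes higher and 3 lower, against 1.22% of all genes.

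Proliferating cell markers, which stood lower on the ECP arrays in this series (8 of 9 measured, mean level 7.70 to 7.92 in the ECP arrays and 8.20 to 8.44 in the control arrays), are given for scale. All 8 had an unadjusted p under 0.05, against 5.08% of all genes, and groups that did not overlap, against 1.22% (0 of 8 passed after adjustment), and the mean difference was -0.52, against -0.0015 for the 83 respiratory chain subunits, whose mean level was 10.07 ± 0.012 in the ECP arrays and 10.07 ± 0.050 in the control arrays (SD, n = 5 each).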

How the data were processed

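Total RNA of 10 colon samples was hybridised to 10 arrays, 5 ECP and 5 control, grouped by sample title. The deposited values are log2 intensities per probe set. The submitters' processing notes name oligo and RMA, without versions. RMA equalises the distributions of the arrays, so a shift common to most probe sets is removed. The table held 22203 probe sets, with array medians of 6.94 to 6.98 and values of 2.81 to 13.6. For arrays, their number limits the precision, and no detection calls were used.

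Probe sets were named through the platform annotation (19572 named), keeping the probe set with the highest mean per symbol. The 19505 genes were compared with limma 3.58.1 in R 4.3.3 (no covariate, two-sided, Benjamini-Hochberg over all genes, threshold 0.05), and isoform pairs by an exact permutation test over all splits of the arrays. The limma step was tested on simulated data. Whether the arrays come from different mice is not stated in the labels, and p-values then reflect only how far these samples spread, which may be technical. No batch or date was given. Full values are given for the 3 members with the smallest p per class and for the isoform pairs, and list genes are the 2 with the smallest p per list. The genes and lists were chosen with earlier results of these data known. Alternatives tried are other normalisations, a filter on dim genes, probe set averaging, trend and robust options, array weights, a replicate block, leaving out arrays, and marker levels as covariates.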

Additional observations from a re-analysis of the deposited data

Results flagged for a closer look

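In 5 of 80 groups of 5 arrays checked (40 levels in each group), the highest or lowest array was separated from the nearest one by more than 0.71 of the whole range. Chance gives about 4 such groups (1 in 20). Cyc1 was high in control replicate 1 (8.96, next 8.59 among the controls). Uqcrc2 was low in ECP replicate 4 (10.01, next 10.07). Cox6a1 was high in ECP replicate 2 (12.10, next 12.01), and Cox4i1 in ECP replicate 5 (10.89, next 10.72). The difference of Cox6b2 minus Cox6b1 was low in control replicate 4 (-5.23, next -4.76).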

How the results depend on the processing

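The number of the 92 genes past the adjusted threshold was 0 under all 21 alternatives, and so was the number of isoform pairs wherever it was recomputed. Probe set averaging could not move the differences of these genes, each of which has 1 probe set. The filter on dim genes kept 91 of them. Counts at an unadjusted p under 0.05 moved from 0 to 1 higher and 1 lower with array weights, with the colonocyte covariate and without control replicates 1 and 4. The shares of all genes there were 6.35%, 6.26% and 6.60%. The count moved to 1 lower with the acinar covariate (5.08% of all genes) and to 2 higher (Ndufa2, Uqcrq) with the smooth muscle covariate (5.11%). When 1 array was left out it lay between 0 and 1 in each direction, against 4.24% to 6.40% of all genes. The complex mean differences lay near 0. Leaving out 1 array at a time gave -0.0035 to 0.029 for complex I, -0.019 to 0.031 for complex III and -0.030 to 0.013 for complex IV, each across 0, and 0.0037 to 0.030 for complex II and -0.023 to -0.0059 for complex V. The highest values for complexes I, III and IV came without control replicate 1, and quantile normalisation gave complex I -0.0021. Same-numbered ECP and control arrays did not deviate together (correlations -0.244 to 0.0761). No pairing by number was seen, though with 5 arrays per group a weak one could go unseen. With the replicate block 0 of 92 genes had an unadjusted p under 0.05, against 4.54% of all genes. Over all genes 1 passed the adjusted threshold without the lowest quartile of genes, with trend and robust options, or without control replicate 3. Some differences changed sign, and the cause was not tested. They included those of Cox6a2 (-0.073 in the main comparison), Cox4i1 (0.056) and Cyc1 (-0.045), which were not the smallest. Median centring gave Cox4i2 -0.00025, and quantile normalisation gave Sdhd -0.0019. Array weights gave Sdhd -0.0084, Cyc1 0.0055, Cox7a1 -0.012 and Ndufa4l2 0.0011. Without control replicates 1 and 4, Sdhc was -0.022, Sdhd -0.015, Cyc1 0.034, Cox6a2 0.011, Cox7a1 -0.072 and Cox7a1 minus Cox7a2 -0.072. The acinar covariate gave Sdhc -0.019, Sdhd -0.012, Cyc1 0.018, Cox6a2 0.033 and Cox7a1 -0.10. The smooth muscle covariate gave Sdhc -0.013, Sdhd -0.024, Cyc1 0.028, Cox7a1 -0.052, Cox7a2 0.0058 and Ndufa4l2 0.012, and the colonocyte covariate Cox7a1 -0.078. Leaving out 1 array at a time also gave ranges across 0 for Ndufs1 (-0.048 to 0.0078), Sdhb (-0.0036 to 0.054), Sdhd (-0.025 to 0.031), Cyc1 (-0.069 to 0.030), Cox4i1 (-0.0051 to 0.14), Cox4i2 (-0.065 to 0.042), Cox6b1 (-0.012 to 0.056), Cox7a1 (-0.079 to 0.083), Cox7a2 (-0.040 to 0.014) and Ndufa4l2 (-0.042 to 0.023), and for Cox4i2 minus Cox4i1 (-0.14 to 0.047), Cox6a2 minus Cox6a1 (-0.041 to 0.079) and Cox7a1 minus Cox7a2 (-0.042 to 0.11). Signal over background was not assessed for dim genes such as Ucp1, Cox7b2, Cox6b2 and Ndufa4l2.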
